A study of Mus musculus with 8 samples.

Results

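The genes described here are 10 transcriptional outputs of Mapk signalling, the dual-specificity phosphatases Dusp4, Dusp5 and Dusp6, the Sproutys Spry1, Spry2 and Spry4, the Spreds Spred1 and Spred2, and the Ets factors Etv4 and Etv5. They were taken from the deposited count table by gene symbol, and all 10 were found among its 53801 genes. RNA was sequenced from Paneth cells of the small intestine in 4 beta-cateninGOF; Mll1+/- samples (controls 1 to 4) and 4 beta-cateninGOF; Mll1-/- samples (knockouts 1 to 4). The sample titles hold 7 distinct numbers, as control 4 and knockout 4 share one, and what the number stands for and whether 1 of the genotype labels is in doubt could not be settled. Fold changes of the 10 genes without both are given for Spred1 and where they moved by over 1.5 times. All 8 samples carried the stabilized β-catenin allele, so the controls were Wnt-activated too and had lost 1 copy of Mll1. Tamoxifen was injected at 1 mg on each of 3 consecutive days, at an age of 4 to 6 wk according to the methods, and cells were taken 10 d after induction. The Cre recombinase was expressed from the Lgr5 promoter, which is active in stem cells and recombines crypts in a mosaic. Viable EpCAM+ Cd24+ cells were sorted, 300 per sample, and the gate as described held no marker of recombination. The study examined loss of Mll1 by staining of crypts, and reported that all cells of mutant crypts, Paneth cells among them, lacked Mll1 when sorted. That staining is not analysed here. The methods paragraph on the sort names littermates with floxed Mll1 and does not mention the β-catenin allele, which the labels and the figure legends give. The study followed Mapk activity in these genotypes, and the comparison asked whether transcripts that follow Erk activity differed between them.

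Mapk signalling runs from receptor tyrosine kinases through Ras, Raf and Mek to Erk, and it switches on its own brakes. Sproutys and Spreds act on Ras and Raf upstream, with Spreds recruiting neurofibromin to shut off Ras, while Dusp phosphatases remove the activating phosphates from Erk itself. Etv4 and Etv5 are transcription factors of the Pea3 group whose transcription follows Fgf and Erk activity. In the intestinal crypt, Egf from Paneth cells and the mesenchyme drives this pathway in stem and progenitor cells.

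The libraries held between 13037832 and 14380240 counts on genes, and no knockout total reached a control total. A count of 3 corresponded to between 0.172 and 0.352 normalized CPM (counts scaled to the library size after TMM, the unit of all levels below). The targeted gene Kmt2a, which encodes Mll1, had 45.1, 37.2, 24.1 and 22.4 CPM in controls 1 to 4 and 31.1, 25.7, 38.5 and 28.4 in knockouts 1 to 4, overlapping groups that gave −0.06 as log2 fold change (adjusted p = 0.995 by edgeR) and −0.19 without knockout 3. Its count sums over all exons and does not show whether a floxed exon was lost, so it checks no label. Knockout 3 stood apart, with a TMM factor of 0.632 against 0.822 to 1.34 in the others and 2.04% of its counts on mitochondrial genes against 3.26% to 8.78%. A fold change of a named gene that moved by over 1.5 times or crossed the limits without it is given both ways. The 4 Y-linked genes Ddx3y, Eif2s3y, Kdm5d and Uty had more counts than Xist in control 3 and knockouts 1 and 2 and fewer in the other 5 libraries. Knockout 3 had 148 Y-linked counts beside 1037 of Xist, where the other 4 libraries with more Xist had 6 to 22 Y-linked counts. The Paneth cell label was met by the level of the markers, since the 14 Paneth markers together took between 265820 and 747406 CPM in a library. All 14 passed the filter, but so did all 10 goblet, 10 stem cell and 10 enteroendocrine markers, so passing it singles out no cell type. The 10 immune markers summed to between 144 and 627 CPM, or between 2.37 and 14.8 without Lyz2, a macrophage gene that the Paneth list also holds, and 6 of them had at most 3 counts in every library. The 10 stromal markers summed to between 4.34 and 7.52 CPM.

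The 10 genes differed widely in level. On the scale of normalized CPM per kb of exon, averaged over all 8 libraries, Spry2 was highest at 5.06 ± 0.633 (SD, n = 8) and lay above Dusp6 in 8 of 8 libraries. Dusp6 at 3.02 ± 0.942 and Dusp5 at 2.76 ± 0.895 could not be ordered, as Dusp6 was the higher in 4 of 8 libraries. A gap followed, with Dusp5 above Spred2 in 8 of 8 libraries. Spred2 at 0.751 ± 0.19, Spred1 at 0.712 ± 0.503, Etv5 at 0.584 ± 0.486 and Spry1 at 0.534 ± 0.317 per kb were neighbours whose order changed between libraries. Dusp4 at 0.364 ± 0.187 and Etv4 at 0.265 ± 0.18 were lower, and Dusp4 lay above Etv4 in 7 of 8 libraries. Spry4, at 0.0346 ± 0.0463, was the lowest and lay below Etv4 in 8 of 8 libraries. The most abundant Sprouty and the least abundant thus stood at the ends of the whole set.

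**Figure D1:**
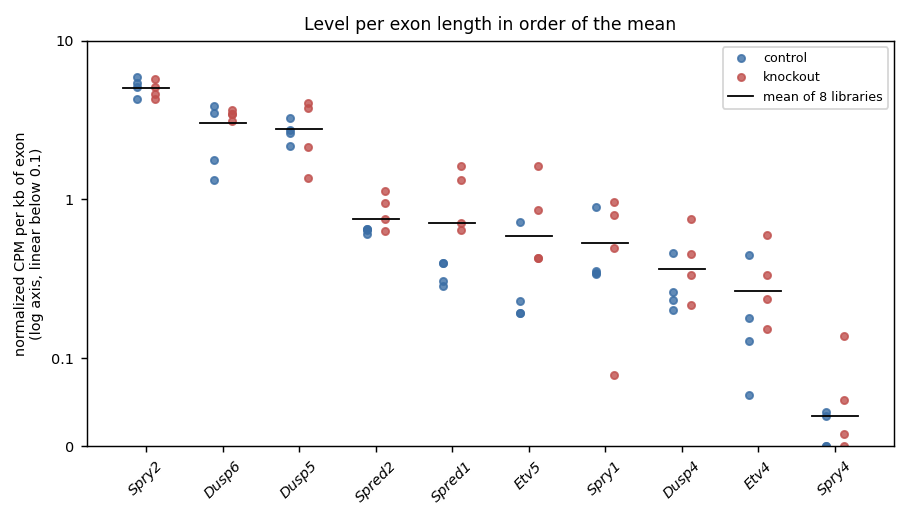
Normalized CPM per kb of exon for each gene in each of the 8 libraries (blue, controls; red, knockouts), on a log axis that is linear below 0.1, with the mean of 8 libraries as a line. Spry2, Dusp6 and Dusp5 lie between 1.32 and 5.95 in every library, and the other 7 genes lie at or below 1.63.

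Of the 10 genes, 9 passed the filter on low counts, and 0 of the 9 passed both limits, a log2 fold change of 0.5 or more in size and an adjusted p no higher than 0.05 (edgeR's quasi-likelihood test with Benjamini-Hochberg adjustment over 13439 genes). Over all tested genes these limits were passed by 0.186%, made up of 0.156% higher in the knockouts and 0.0298% lower. At an unadjusted p under 0.05 there were 2 of the 9, Spred1 and Etv5, both higher in the knockouts, against 4.35% of all tested genes that were higher and 2.53% that were lower at this level. DESeq2's Wald test, the tool of the study, called 1 of the 9, Spred1, and 1.03% of all tested genes. The alternative limma-voom, run only with quality weights for the libraries, also called 1, Spred1, and 0.707% of all tested genes. The log2 fold change was above 0 for 8 of the 9, against 50.9% of all tested genes, and its median was 0.45, against 0.01 over all tested genes. Groups without overlap were seen for 1 of the 9, Spred1, and for 2.59% of all tested genes with the knockouts higher and 1.93% with the knockouts lower. Without knockout 3 the median was 0.63 and 8 of the 9 were again above 0, against 48.5% of all genes tested in that fit. There 1 of the 9, Spred1, passed both limits, against 1.08% of all tested genes.

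**Figure D2:**
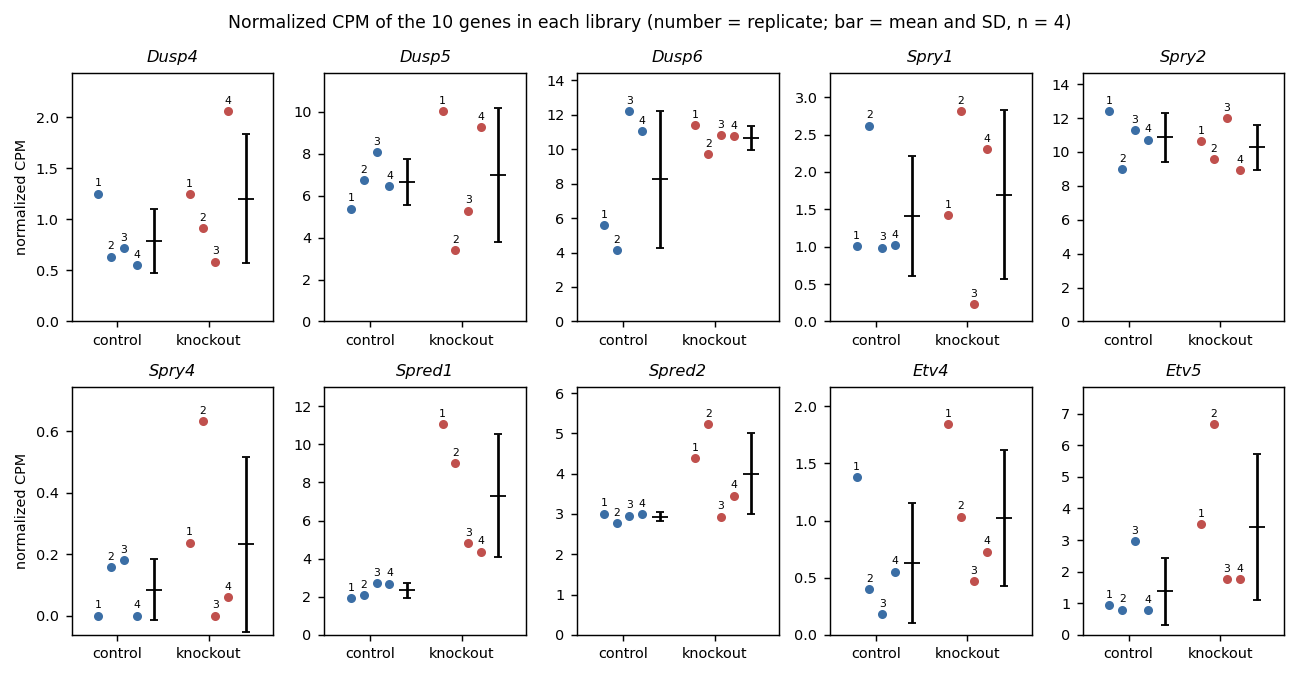
Normalized CPM (linear axis) of each of the 10 genes in controls (blue) and knockouts (red), each point a library with its replicate number, and bars for the mean and SD (n = 4). All 4 knockouts lie above all 4 controls for Spred1, and the groups overlap for the other 9 genes.

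Spred1 (ENSMUSG00000027351, mm10, chromosome 2 from 117121374 to 117182279, plus strand) had the largest difference of the set. Spred1 is a membrane-bound inhibitor that brings neurofibromin to Ras. It had 1.94, 2.06, 2.69 and 2.68 normalized CPM in controls 1 to 4 and 11.0, 9.02, 4.82 and 4.37 in knockouts 1 to 4, from 26 to 34 counts in a control and 41 to 186 in a knockout. Every knockout lay above every control, and knockouts 1 and 2 were the highest. The mean CPM was 2.35 ± 0.398 for controls against 7.31 ± 3.25 for knockouts (SD, n = 4 per genotype), or 1.65 as log2 fold change (standard error 0.36, 95% interval 0.86 to 2.44, unadjusted p = 0.000729, adjusted p = 0.161 by edgeR). By p it was gene 61 of 13439, so it missed the adjusted limit. With DESeq2's Wald test the adjusted p was 0.00407, and with limma-voom and library quality weights it was 0.0453. Without knockout 3 edgeR gave 0.0239, in a fit where 1.08% of all tested genes passed both limits. Without control 4 and knockout 4 the log2 fold change was 1.90 (adjusted p = 0.324 by edgeR). An exact permutation test on the 8 libraries gave p = 0.0286, two-sided, the smallest that 4 against 4 can give.

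The sequence just upstream of Spred1 is shown because it is the gene that stood out, beside those of Dusp6 and Spry2, which did not. Each is the 250 bases before the RefSeq transcription start on GRCm38, 5′ to 3′ on the strand of the gene, without bases of an annotated exon. Capitals mark an Ets motif (CGGAAG or CTTCCG) or an Sp motif (GGGCGG or CCGCCC), which do not overlap here.
Spred1, chr2:117120821-117121070, plus strand: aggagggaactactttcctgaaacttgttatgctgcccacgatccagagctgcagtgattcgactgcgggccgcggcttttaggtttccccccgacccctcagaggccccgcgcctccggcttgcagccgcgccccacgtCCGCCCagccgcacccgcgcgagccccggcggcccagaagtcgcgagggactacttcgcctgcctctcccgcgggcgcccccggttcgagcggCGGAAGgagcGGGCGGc
Dusp6, chr10:99262981-99263230, plus strand: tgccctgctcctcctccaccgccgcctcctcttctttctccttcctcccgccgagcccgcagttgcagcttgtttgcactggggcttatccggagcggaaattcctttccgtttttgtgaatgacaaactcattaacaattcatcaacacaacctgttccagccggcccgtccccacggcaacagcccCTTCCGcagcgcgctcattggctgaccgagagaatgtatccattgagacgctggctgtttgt
Spry2, chr14:105896820-105897069, minus strand: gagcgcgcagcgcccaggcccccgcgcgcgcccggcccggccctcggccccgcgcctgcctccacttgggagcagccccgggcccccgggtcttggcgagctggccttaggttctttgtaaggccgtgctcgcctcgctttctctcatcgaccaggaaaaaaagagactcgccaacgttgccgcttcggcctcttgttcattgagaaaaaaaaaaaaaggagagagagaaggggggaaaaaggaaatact
The Spred1 window held 31 CpG dinucleotides, more than 94.8% of 32851 windows of the same length from 27025 genes, against 16 in Dusp6 and 23 in Spry2 and a median of 6 over all windows. It had 1 Ets motif, where 13.59% of all windows held at least 1. It also had 2 Sp motifs, where 32.74% held at least 1, and the share with 2 was not computed. Dusp6 had 1 Ets motif and 0 Sp motifs, and Spry2 had 0 of either. A Gata motif (AGATAA or TTATCT, in 9.99% of all windows), an AP1 motif (TGACTCA or TGAGTCA, in 4.46%) and a CRE (TGACGTCA, in 1.55%) were searched on both strands too, with 0 matches in these 3 windows. Windows were at hand for 7 of the 10 genes. Among the 4 genes not printed, Spred2 held 1 Ets motif and 1 Sp motif that overlap, Etv5 held 3 Sp motifs in 1 of its 2 windows and 0 in the other, and Dusp5 and Spry1 held 1 Sp motif each, so the matches were not particular to Spred1. A match gives letters and not a bound site.

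Spred2 (ENSMUSG00000045671, chromosome 11 from 19924375 to 20024026) encodes a close relative with the same action on Ras. It had 3.01, 2.78, 2.96 and 3.00 normalized CPM in controls 1 to 4 and 4.40, 5.23, 2.94 and 3.46 in knockouts 1 to 4. The controls were tightly grouped, and knockouts 1, 2 and 4 lay above all of them, while knockout 3 lay within their range. The log2 fold change was 0.45 (standard error 0.30, 95% interval −0.21 to 1.12, adjusted p = 0.882 by edgeR), and 0.30 without knockout 2. Without knockout 3 it was 0.57 with an adjusted p of 0.485, and in these 7 libraries the groups did not overlap, which held for 6.66% of all genes with the knockouts higher.

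**Figure D3:**
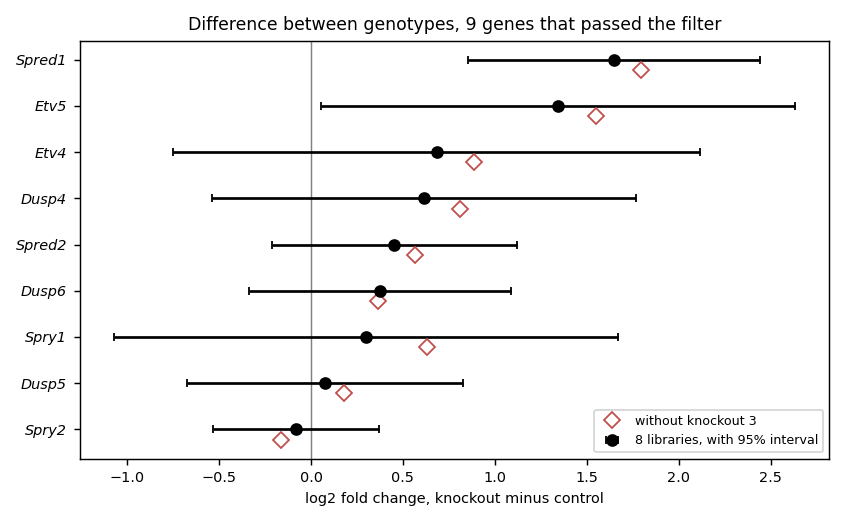
Log2 fold change, knockout minus control, of the 9 genes that passed the filter, with the 95% interval from edgeR's quasi-likelihood fit on all 8 libraries (black) and the value without knockout 3 (red diamonds). The intervals of Spred1 and Etv5 lie above 0 and the other 7 include 0, from Etv4 at 0.68 to Spry2 at −0.08.

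Etv5 (ENSMUSG00000013089, chromosome 16 from 22381309 to 22439719) came next. It had 0.94, 0.793, 2.96 and 0.789 normalized CPM in controls 1 to 4 and 3.50, 6.66, 1.76 and 1.76 in knockouts 1 to 4. Each knockout lay above controls 1, 2 and 4, but control 3 lay above knockouts 3 and 4. The log2 fold change was 1.34 (standard error 0.59, 95% interval 0.05 to 2.63, unadjusted p = 0.0427, adjusted p = 0.686 by edgeR), and the exact permutation test gave p = 0.0857. When single libraries were dropped, the log2 fold change ran from 0.79 without knockout 2 to 2.02 without control 3, and the adjusted p was between 0.249 and 1 over all alternatives.

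Etv4 (ENSMUSG00000017724, chromosome 11 from 101769742 to 101785371), another Pea3 factor, was near the limit of the counts. It had 22, 5, 2 and 7 counts in controls 1 to 4 and 31, 18, 4 and 12 in knockouts 1 to 4. The groups overlapped, and replicate 1 of each genotype was the highest. Its log2 fold change was 0.68 (standard error 0.65, 95% interval −0.75 to 2.12, adjusted p = 0.935 by edgeR), an interval that holds a fold change of 4.33 as well as none. It ran from 0.25 without knockout 1 to 1.43 without control 1. Etv1, the third member of the Pea3 group, is not among the 10 genes and was looked up after its values were seen. It had 3.13, 1.51, 8.53 and 0.474 CPM in controls 1 to 4 and 1.07, 0.459, 1.17 and 2.37 in knockouts 1 to 4, overlapping groups with the lower mean in the knockouts (log2 fold change −1.41, standard error 0.76, adjusted p = 0.81 by edgeR).

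Among the Sproutys, Spry2 (ENSMUSG00000022114, chromosome 14 from 105891947 to 105896819), an inhibitor of the step from growth factor receptors to Ras, was the most evenly expressed of the tested genes. It had 12.4, 8.97, 11.3 and 10.7 normalized CPM in controls 1 to 4 and 10.6, 9.59, 12.0 and 8.92 in knockouts 1 to 4. The 2 ranges all but coincided. The log2 fold change was −0.08 (standard error 0.21, adjusted p = 0.986 by edgeR), and its 95% interval of −0.53 to 0.37 leaves room for a fold between 0.691 and 1.29. Without knockout 3 it was −0.16, without control 4 and knockout 4 −0.025, and without control 1 −0.0076. Spry1 (ENSMUSG00000037211, chromosome 3 from 37639947 to 37644598), a relative with a like action on receptor signalling, had 1.00, 2.62, 0.987 and 1.03 CPM for controls and 1.43, 2.81, 0.235 and 2.30 in the knockouts. Knockout 3, with 2 counts, was the lowest library and knockout 2 the highest, and the log2 fold change of 0.30 had an interval of −1.07 to 1.67 (adjusted p = 0.985 by edgeR). Without knockout 3 it was 0.63 (adjusted p = 0.673 by edgeR), and without control 4 and knockout 4 it was 0.0015. With single libraries left out it ran from −0.048 without knockout 2, which turned its sign, to 0.77 without control 2. Of its exon bases 24.4% also belong to Gm42922 on the other strand, which had at most 1 count in a library. The strand setting of the counting is not given in the sources used here. Spry4 (ENSMUSG00000024427, chromosome 18 from 38586268 to 38601268) did not pass the filter, with 0, 2, 2 and 0 counts in controls 1 to 4 and 4, 11, 0 and 1 in knockouts 1 to 4. At most 2 counts were reached in a control, and a difference was not detectable at this depth.

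Dusp6 (ENSMUSG00000019960, chromosome 10 from 99263231 to 99267489), the cytoplasmic Erk phosphatase, had 5.58, 4.13, 12.2 and 11.1 normalized CPM in controls 1 to 4 and 11.4, 9.70, 10.8 and 10.7 in knockouts 1 to 4. The knockouts lay close together, and the controls fell into a low pair, controls 1 and 2, and a high pair, controls 3 and 4, that reached the level of the knockouts. The log2 fold change was 0.38 (standard error 0.33, 95% interval −0.34 to 1.09, adjusted p = 0.916 by edgeR). It ran from 0.15 without control 2 to 0.62 without control 3. Dusp5 (ENSMUSG00000034765, chromosome 19 from 53529109 to 53542431), a nuclear Erk phosphatase, had 5.39, 6.74, 8.08 and 6.47 CPM for controls and 10.0, 3.39, 5.29 and 9.28 in the knockouts. Here the knockouts enclosed the whole range of the controls, 2 above it and 2 below it. The log2 fold change was 0.08 (standard error 0.34, 95% interval −0.67 to 0.83, adjusted p = 0.995 by edgeR), and its sign changed with the library left out, being 0.18 without knockout 3 and −0.11 without control 4 and knockout 4. Dusp4 (ENSMUSG00000031530, chromosome 8 from 34807297 to 34819894), a nuclear phosphatase of Erk and other Map kinases, had between 7 and 20 counts in a control and between 5 and 34 in a knockout. Knockout 4 was the highest at 2.06 CPM, the other knockouts spanned 0.587 to 1.25 and the controls 0.552 to 1.25. Its log2 fold change was 0.61 (standard error 0.53, 95% interval −0.54 to 1.76, adjusted p = 0.916 by edgeR). It ran from 0.23 without knockout 4 to 0.94 without control 1, and was 0.09 without control 4 and knockout 4.

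The label numbers fall into 2 runs, the first holding controls 1 and 2 with knockouts 1 and 2. What the runs stand for is not given. Within that first run the knockouts exceeded the controls by 2.07 for Spred1, 1.97 for Etv5 and 1.06 for Dusp6, as differences of mean log2 CPM with 0.5 added. In the second run the same differences were 0.67 for Spred1, 0.10 for Etv5 and −0.10 for Dusp6. With 2 libraries a side and run these are values without a test. For the other 6 tested genes the first run gave −0.06 to 0.64 and the second −0.09 to 0.56. With the run as a block, Spred1 showed a log2 fold change of 1.56 (adjusted p = 0.19 by edgeR) and Etv5 1.24 (adjusted p = 0.698).

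Knockouts 1 and 2, which were high for Spred1, Spred2 and Etv5, were also the 2 knockouts with more Y-linked counts than Xist, and controls 1 and 2 had more Xist, so sex and genotype cannot be told apart within the first run. Control 3, the highest control for Etv5, was the only control with more Y-linked counts. Among libraries with more Y-linked counts than Xist, Spred1 had 2.69 CPM in control 3 and 9.02 and 11.0 in the knockouts. Among those with more Xist, it had 1.94 to 2.68 in 3 controls and 4.37 and 4.82 in 2 knockouts. The class with more Xist includes knockout 3 with its mixed counts. As the Spred1 groups did not overlap over all 8 libraries, any split of them puts the knockouts above, so the split says nothing on sex. Etv5 had 2.96 in control 3 against 3.50 and 6.66 in the knockouts of the first class. In the second it had 0.789 to 0.94 in the controls against 1.76 in both knockouts. The first class holds 1 control, so these are values without a test. With the log2 of the Y-linked counts as a covariate, the log2 fold change was 1.29 for Spred1 (standard error 0.36, adjusted p = 0.527 by edgeR) and 0.81 for Etv5 (standard error 0.44, adjusted p = 0.889).

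Knockout 3 was the lowest knockout for 5 of the 10 genes and the highest for 1, Spry2. Its median over the 10 genes was 1.48 on the log2 scale of CPM with 0.5 added, against 1.74 to 2.24 in the remaining knockouts and 1.10 to 1.73 in the controls. In this library the 10 stem cell markers summed to 355 CPM, while knockouts 1, 2 and 4 had 768 to 1103 and controls 819 to 1677. The 14 Paneth markers summed to 747406 CPM in it, against 265820 to 328697 in the other knockouts. The part of these shifts in the levels of the 10 genes was not tested.

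Other feedback genes of the pathway were read from a list of 19, of which 13 were tested and 0 passed the limits. At an unadjusted p under 0.05 there were 3 higher and 1 lower, DESeq2 called 1 (against 1.03% of all tested genes), 9 lay above a log2 fold change of 0 and 4 below, and the median log2 fold change was 0.20. Of all tested genes, 4.35% were higher and 2.53% lower at this p, and 50.9% lay above 0. Groups without overlap were seen for 2.59% with the knockouts higher and 1.93% with them lower, shares that hold for the lists below too. Errfi1, which binds and blocks the Egf receptor, had 7.09 ± 2.08 CPM for controls and 14.3 ± 2.4 in the knockouts with no overlap (log2 fold change 1.01, standard error 0.26, adjusted p = 0.316 by edgeR, 0.0444 by DESeq2). Dusp1, an immediate early phosphatase, had 19.2 ± 6.61 and 29.7 ± 4.36 (log2 fold change 0.63, adjusted p = 0.633). Dusp10, which acts mainly on p38 and Jnk, had 0.552 to 0.873 CPM for controls and 4.16, 2.41, 0 and 3.70 in knockouts 1 to 4. Its log2 fold change was 1.83 (adjusted p = 0.68 by edgeR) and 2.22 without knockout 3 (adjusted p = 0.0186 by edgeR), where 1.08% of all tested genes passed both limits. Il17rd, or Sef, an inhibitor of Fgf signalling, was the one lower at an unadjusted p under 0.05, with 1.57 ± 0.516 CPM for controls and 0.552 ± 0.423 in the knockouts and no overlap (log2 fold change −1.44, adjusted p = 0.67 by edgeR).

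Receptors, adaptors and kinases from the receptor to Erk and Rsk gave 24 tested genes, 0 past the limits, with 7 above and 17 below a log2 fold change of 0 and a median of −0.12. At an unadjusted p under 0.05 by edgeR 2 were higher and 1 lower, and DESeq2 called 1, against 1.03% of all tested genes. Of all tested genes, 4.35% were higher and 2.53% lower at this p, 50.9% lay above 0, and 2.59% were higher without overlap. Met, the receptor of Hgf, had 7.03 ± 2.45 CPM for controls and 15.4 ± 1.94 in the knockouts with no overlap (log2 fold change 1.13, standard error 0.28, adjusted p = 0.274 by edgeR, 0.0258 by DESeq2). Gab1, a docking protein of Met and the Egf receptor, had 3.32 ± 1.16 and 6.98 ± 3.67, also with no overlap (log2 fold change 1.05, adjusted p = 0.589). Knockout 3 was at 12.5 CPM, and without it the knockout mean was 5.16 ± 0.495 (log2 fold change 0.63, adjusted p = 0.487 by edgeR). Erbb3, a partner of Erbb2, had 22.2 ± 3.6 and 15.4 ± 4.33 (log2 fold change −0.52, adjusted p = 0.698), and Rps6ka1, an Erk-activated kinase, showed a log2 fold change of −0.39 (adjusted p = 0.788).

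Genes that respond to Erk gave 14 tested of 15, with 0 past the limits, 11 above 0 and a median log2 fold change of 0.44. At an unadjusted p under 0.05 by edgeR 3 were higher and 0 lower, and DESeq2 called 0. Of all tested genes, 4.35% were higher and 2.53% lower at this p, 50.9% lay above 0, and 2.59% were higher without overlap. Phlda1, a frequent readout of Mapk activity, had 42.5 to 46.6 CPM for controls and 79.1, 98.9, 39.4 and 64.8 in knockouts 1 to 4. Its log2 fold change was 0.67 (adjusted p = 0.564 by edgeR). Without knockout 3 it was 0.86 (adjusted p = 0.0239 by edgeR), where 1.08% of all tested genes passed both limits. Of the Phlda1 exon bases 33% also belong to Gm28592 on the other strand. The early response factor Egr2 had 2.34 ± 1.11 CPM for controls and 5.74 ± 3.14 in the knockouts (log2 fold change 1.31, adjusted p = 0.631), and Egr1 98.6 ± 30.5 and 156 ± 71.9 (0.66, adjusted p = 0.729). Without knockout 3, at 264 CPM, the Egr1 mean of the knockouts was 120.4 ± 6.97 (log2 fold change 0.28, adjusted p = 0.675 by edgeR). Knockout 3 was the lowest knockout for Phlda1 and Egr2, as it was for Spry1, Spred2 and Dusp4, and the highest for Egr1 and Ier2. Ier2, another immediate early gene, lay at 0.50 as log2 fold change (adjusted p = 0.702) and at 0.32 without knockout 3 (adjusted p = 0.589). Of the other Ets factors 13 of 16 were tested and 0 passed in edgeR or DESeq2, with 1 higher at an unadjusted p under 0.05 and a median of 0.14. Elk4, which carries Erk signals to serum response elements, had 8.24 ± 1.17 and 12.1 ± 1.74 CPM with no overlap (log2 fold change 0.55, adjusted p = 0.627 by edgeR), and Elk3, Gabpa and Elf2 had 0.67, 0.31 and 0.25 (adjusted p between 0.849 and 0.913), with Gabpa at 0.20 without knockout 3.

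**Figure D4:**
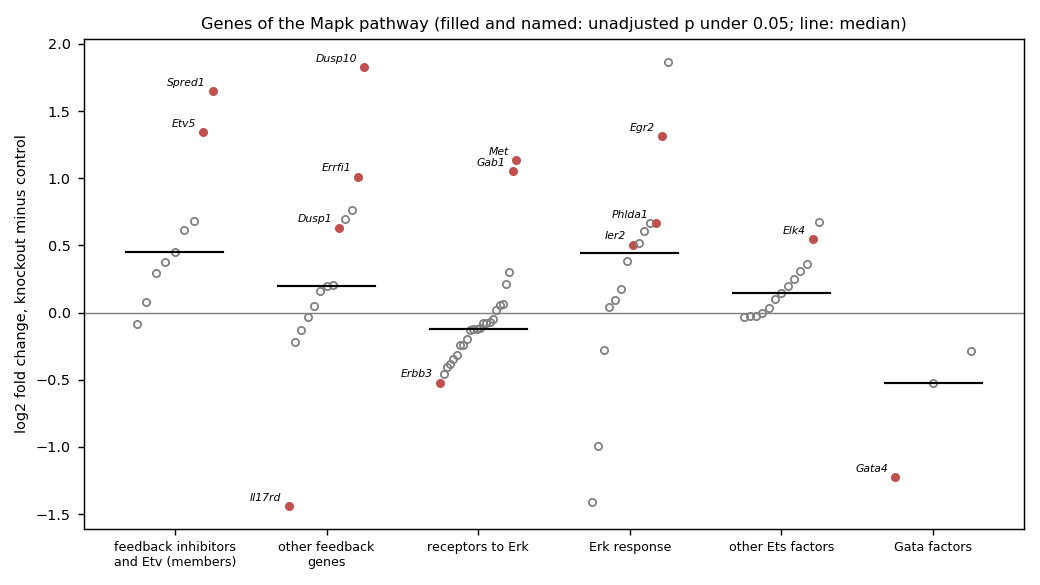
Log2 fold change, knockout minus control, of every tested gene in 6 lists of the pathway, with filled and named points at an unadjusted p under 0.05 and a line at the median of each list. The medians are 0.45 for the 9 tested feedback inhibitors and Etv factors, 0.20, −0.12, 0.44 and 0.14 for the next 4 lists, and −0.53 for the 3 Gata factors.

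Gata4 and Gata6, endodermal transcription factors that the study also followed, are set beside the 10 genes. Gata4 had 7.27, 8.73, 8.08 and 7.34 normalized CPM in controls 1 to 4 and 2.79, 2.70, 4.11 and 3.88 in knockouts 1 to 4, with no overlap (log2 fold change −1.23, standard error 0.26, adjusted p = 0.144 by edgeR, 0.00204 by DESeq2). Of all tested genes 1.93% were lower in the knockouts without overlap. Without knockout 3 the Gata4 value was −1.33 (adjusted p = 0.0248 by edgeR), where 1.08% of all tested genes passed both limits. Gata6 had 29.9 ± 2.92 and 24.5 ± 4.36, or −0.28 as log2 fold change (adjusted p = 0.864 by edgeR). Control 4 lay within the range of the other controls for Gata4, and knockout 4 within that of the other knockouts, although their titles share a number. Whether this bears on the genotype labels was not tested. The knockouts with the lowest Gata4, knockouts 1 and 2, were those with the highest Spred1, and the relation between the 2 genes was not tested.

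Of the markers of neighbouring crypt cells, the enteroendocrine sum was the one without overlap between the genotypes. The 10 enteroendocrine markers summed to between 217.1 and 820 CPM for controls and between 45.7 and 216.7 in the knockouts, the 10 tuft markers to between 273 and 790 and between 138 and 512, and the 10 goblet markers to between 9346 and 17863 and between 7954 and 19155. The 10 stem cell markers, whose cells use Mapk signalling, reached 819 to 1677 CPM for controls and 355 to 1103 in the knockouts, and the 10 enterocyte markers 162 to 345 and 95.1 to 257. A sum is led by its most abundant genes. By edgeR's log2 fold change the single markers went both ways for stem cells (3 higher, 7 lower) and goblet cells (6 higher, 4 lower). Lower in the knockouts were 9 of 10 enteroendocrine, 9 of 9 tuft and 6 of 7 enterocyte markers tested, with medians of −1.82, −0.88 and −0.77. The part of these cell types in the levels of the 10 feedback and Etv genes was not tested. In bulk samples fewer cells of a type and less RNA per cell cannot be told apart.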

How the data were processed

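RNA of sorted Paneth cells was sequenced from 4 controls and 4 knockouts after Smart-seq2 amplification. Per the labels and methods, the authors used GSNAP for alignment (mm10) and featureCounts 1.6.3 with Ensembl release 92 annotation for uniquely mapped reads. What they deposited are unscaled gene counts, without normalization or molecular identifiers, so limits drawn from counts cover counting error only. The exon lengths were those of the count table. The 92 spike-in rows were left out.

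Symbols were matched by Ensembl identifier, and 9 of the 10 genes had the same span in GENCODE M21 of GRCm38. Counts were analysed in R 4.3.3 with edgeR 4.0.16 (TMM, filterByExpr at 10 counts, total at least 15, robust quasi-likelihood fit), on 13439 genes. The common biological coefficient of variation was 0.376. Standard errors were approximated as the log2 fold change divided by the square root of F, and 95% intervals use the total degrees of freedom of the fit. Exact permutation tests used log2 CPM with 0.5 added. DESeq2 1.42.0 and limma 3.58.1 (voom with library quality weights) were alternatives, and the functions were tested on simulated data. Replicate numbers follow accession order and pair no samples. Each pair of libraries differed beyond counting noise (lowest chi-square per df 12.13). Tests measure the spread between these samples.

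The 10 genes and the gene lists were chosen with earlier results of these data known. Beyond the 10, the genes named from the other feedback, receptor-to-Erk, Erk response and Ets lists are those past the limits and the 4 with the smallest p in each list. Gata4, Gata6 and Kmt2a were also part of that rule, and Etv1 was added after its values were seen. Upstream sequences are from RefSeq on GRCm38.p6.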

Additional observations from a re-analysis of the deposited data

Results flagged for a closer look

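In 58 groups of 4 libraries, over the 10 genes and the other named genes, 5 held a library set off by more than Dixon's critical ratio, the distance to its closest neighbour divided by the span of the group. Chance alone flags about 1 in 20 such groups. Control 2 was the highest control for Spry1, at 2.62 CPM against 0.987 to 1.03 (ratio 0.976), and control 3 for Etv5, at 2.96 against 0.789 to 0.94 (ratio 0.9305). Knockout 3 was the highest knockout for Gab1, at 12.5 CPM against 4.73 to 5.70 (ratio 0.874), for Ier2, at 66.7 against 40.8 to 44.8 (ratio 0.843), and for Egr1, at 264 against 113 to 126 (ratio 0.909).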

How the results depend on the processing

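Spred1, Spred2, Dusp6, Etv5 and Spry2 kept their sign under every alternative in which they were tested, and so did Dusp4 and Etv4. Dusp5 turned to −0.041 with limma-voom, which was run only with quality weights, so that test and weighting changed together. With single libraries left out Dusp5 ran from −0.15 to 0.31 and Spry1 from −0.048 to 0.77. Of the 10 genes 1, Spred1, passed both limits without a filter on low counts (log2 fold change 1.66, adjusted p = 0.00397 by edgeR), with DESeq2's Wald test (1.65), with limma-voom (1.79) and without knockout 3 (1.8, adjusted p = 0.0239), and 0 in the other 7 fits that left out a library, so the count ran from 0 to 1. The number of all genes past both limits was 25. It was 290 without a filter, 13 with at least 10 counts in every library, 138 with DESeq2's Wald test and 95 with limma-voom and quality weights. It was 10 with the Y-linked covariate, 24 with the run as a block and 38 at 10% false discovery rate. It lay between 10 (without control 3) and 152 (without knockout 3) with single libraries left out. Among the other feedback genes 1 was called without a filter and 1 with DESeq2, Errfi1 in both, and 0 to 1 (Dusp10) with libraries left out. From the receptors to Erk 1, Met, was called without a filter and 1, Met, with DESeq2, among the Erk response genes 0 to 1 (Phlda1) with libraries left out, and among the Gata factors 1, Gata4, with DESeq2, 1, Gata4, with limma-voom and 0 to 1 with libraries left out. The median log2 fold change of the 9 tested genes ran from 0.37 to 0.63 with libraries left out. Leaving out both control 4 and knockout 4, whose titles share a number, was chosen after seeing the data, and gave 11 genes past both limits, 0 of the 10 among them, with Dusp5 at −0.105. No paired analysis was possible because the replicate numbers follow accession order and the titles share 1 number between a control and a knockout. Depth limited Spry4 most, which did not pass the filter, and Dusp4, Spry1 and Etv4 could not be run at 10 counts in every library.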
